A study of Homo sapiens with 12 samples.

Results

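A set of 10 transcripts that mark monocytes, macrophages and their differentiation were followed: ANPEP, CD68, CD86, CD36, ITGAM, CSF1R, S100A8, S100A9, APOE and FCAR. They were chosen with earlier results of these data known, so their counts beside those of all genes are descriptions. Rows were taken by gene symbol, and all 10 were in the deposited table of 30017 symbols. All 10 passed the filter on low counts that left 16010 symbols for testing. PolyA RNA came from THP-1, a widely used human line from a monocytic leukaemia (acute myeloid), which the labels call AML blasts. Cells had been electroporated with Cas9, to which a guide against the kinase gene IRAK4 was added for the knockout, and then grown out from single cells. The groups were IRAK4 knockout given 50 nM CC-885, knockout given DMSO, wild type given 50 nM CC-885 and wild type given DMSO, each for 12 h and each with 3 libraries. CC-885 is a cereblon-binding small molecule that directs the translation termination factor GSPT1 to degradation. The number of clones behind each genotype and whether replicates were separate cultures are not given in the labels. A genotype difference therefore cannot be told apart from a difference between clones, and p-values measure only the spread between these libraries.

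Monocytes arise from myeloid progenitors under transcription factors such as PU.1 and C/EBP proteins, and mature into macrophages when signals such as colony-stimulating factor 1 act through its receptor, CSF1R. On the way they gain surface peptidases, integrins, Fc receptors and scavenger receptors, and their lysosomes enlarge. S100A8 and S100A9 together form calprotectin, an abundant calcium- and zinc-binding protein of the monocyte and neutrophil cytosol. THP-1 cells sit at an immature monocytic stage and can be driven towards macrophages in culture.

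Library totals ranged from 46903984 to 56675539 counts. IRAK4 itself read 29.6 to 31.7 CPM (counts scaled to library depth with TMM factors) in CC-885-treated knockout, 7.28 to 8.78 CPM in knockout under DMSO, 65.4 to 83.6 CPM in CC-885-treated wild type and 50.9 to 53.9 CPM in wild type under DMSO. Wild-type CC-885 replicate 3 stood apart: its chi-square per degree of freedom against the other 2 libraries of its group was 76.1 and 62.3, against 5.06 between those 2. Without it, the numbers of the 10 markers called in the 5 comparisons were the same as with it, but 2 calls changed. For knockout against wild type under CC-885, CD86 was no longer called (edgeR adjusted p = 0.0915) and ITGAM was (edgeR adjusted p = 0.00553). The library names carry a prefix, 51 or 52, of no stated meaning, and no knockout CC-885 library has 52. Wild-type CC-885 replicate 3 has 52 and the other 2 libraries of its group have 51. The part of the prefix in its distance from them was not tested. Of 10 genes listed for the identity of a monocytic line, none was at 0 in any group. Their summed level was 1650 to 1685 CPM of library totals in CC-885-treated knockout, 3609 to 4833 CPM in knockout under DMSO, 1606 to 1696 CPM in CC-885-treated wild type and 2486 to 2537 CPM in wild type under DMSO. CD14, the co-receptor for bacterial lipopolysaccharide, was low among them at 3.74, 3.03, 2.51 and 1.20 CPM of library totals in the same group order.

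Knockout cells under DMSO carried more of most of these markers than wild-type cells under DMSO. Of the 10 markers, S100A8, S100A9, FCAR, APOE, ANPEP, CD68 and CSF1R, were higher in knockout, which is 7 of 10 against 21.3% of all genes tested. The 2 markers CD86 and CD36 were lower, against 28.4% of all genes, and ITGAM did not pass the test. The median log2 fold change was 1.75 over the 10 markers and -0.06 over all genes. Of all calls, 42.9% were higher, or 60.7% with upper-quartile factors, which moved the median of all genes by 0.122 on the log2 scale.

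Under CC-885 the same comparison of knockout with wild type gave 6 markers higher, against 27.8% of all genes, and 3 lower, against 30.8% of all genes. S100A8, S100A9, FCAR, APOE, ANPEP and CD68 were higher, and CSF1R, CD36 and CD86 were lower. The CD86 call was lost under 18 of 21 alternative settings. ITGAM did not pass the test (log2 fold change -0.20 ± 0.10, SE, adjusted p = 0.0815), but was called at -0.30 without wild-type CC-885 replicate 3 (adjusted p = 0.00553) and at -0.30 in the 51-prefix libraries alone (adjusted p = 0.00119).

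CC-885 lowered most markers in each genotype. In knockout 8 of 10 fell relative to DMSO, against 40% of all genes, and 2 rose, CD86 and FCAR, against 38.9% of all genes. In wild type the count was again 8 lower, against 36.6% of all genes, and 2 higher, again CD86 and FCAR, against 35.7% of all genes. The median over the 10 markers was -0.93 in knockout and -0.86 in wild type, while the median of all genes was -0.03 in each. With upper-quartile factors the median of all genes in knockout moved by -0.148. CC-885 comparisons and genotype comparisons share libraries and are not independent of one another. In bulk RNA, fewer cells of a type and less of a transcript per cell cannot be told apart, and neither total RNA nor protein was analysed here.

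**Figure D1:**
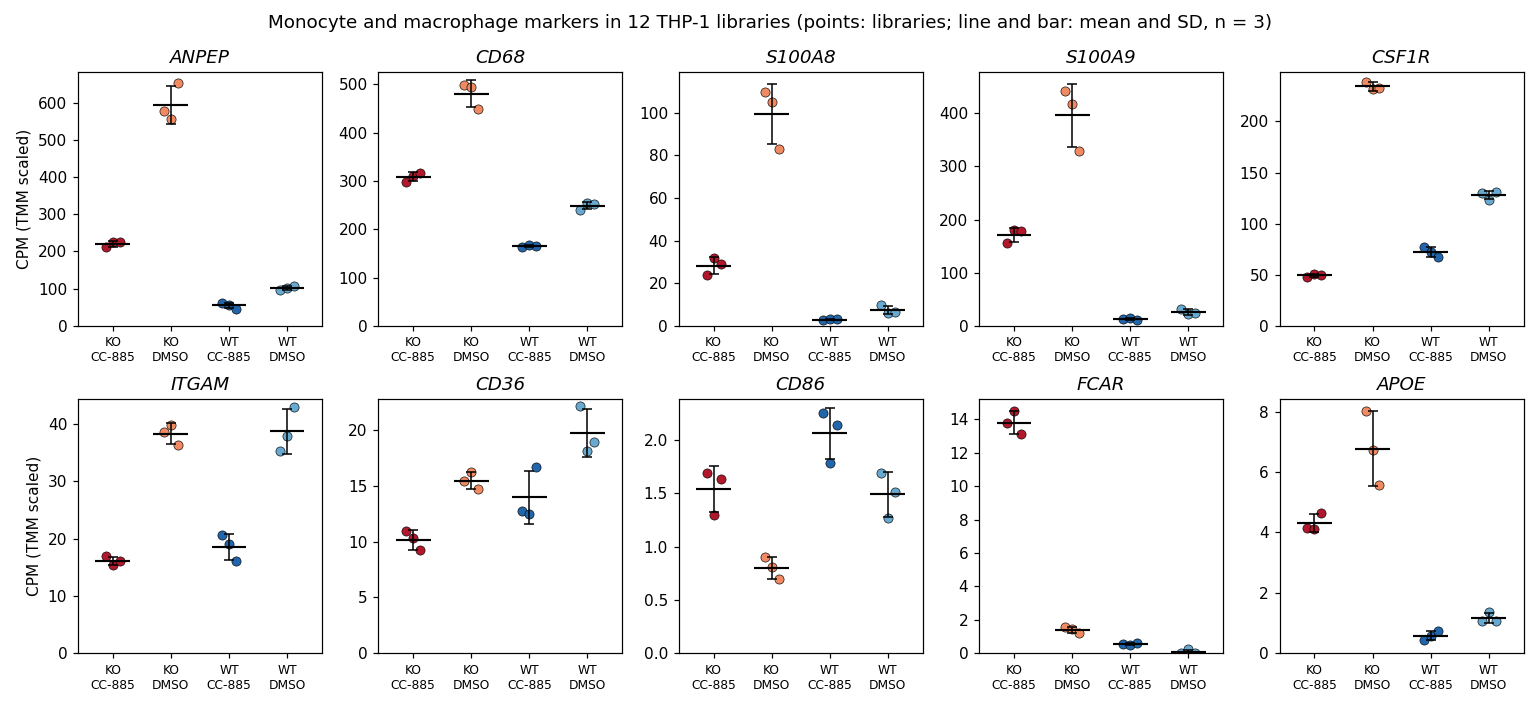
Level of each of the 10 markers in the 12 libraries, in CPM with TMM scaling on a linear axis from 0. Points are libraries, lines and bars are the mean and SD of 3. S100A8, S100A9, ANPEP, CD68 and APOE are higher in both knockout groups than in either wild-type group, CSF1R is highest in knockout under DMSO and lowest in CC-885-treated knockout, and FCAR is highest in CC-885-treated knockout (13.1 to 14.5 CPM).

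**Figure D2:**
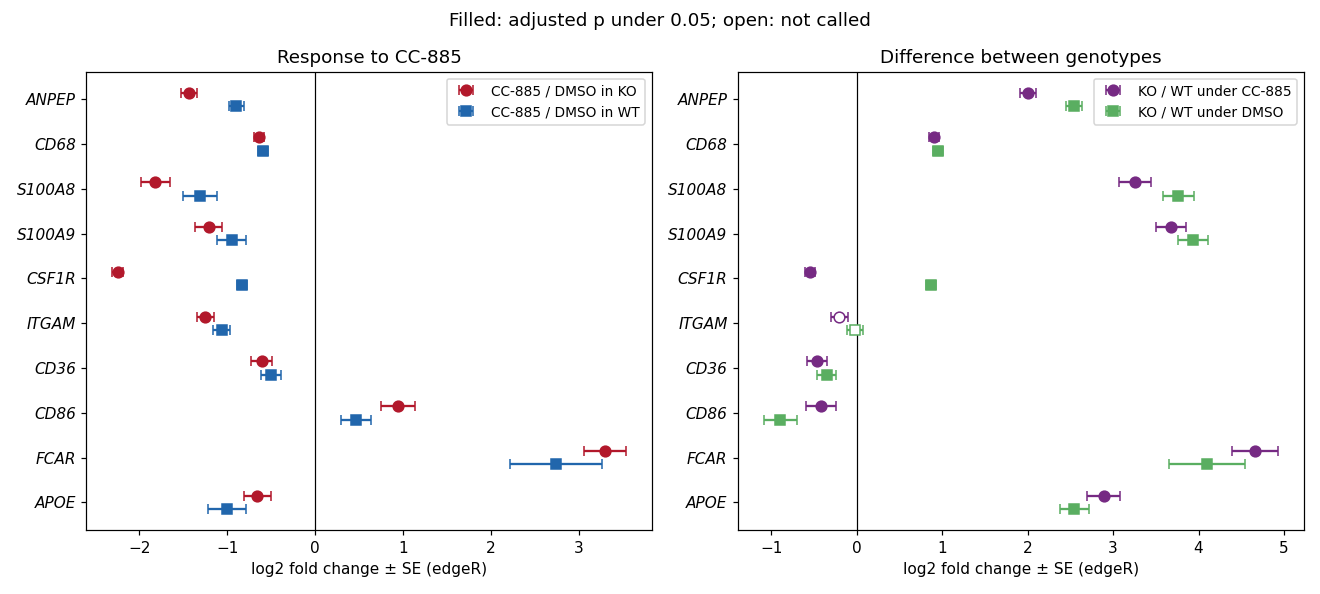
Log2 fold change with SE for each marker, on the left for CC-885 against DMSO in each genotype and on the right for knockout against wild type under each treatment. Filled symbols passed the test and open symbols, both for ITGAM, did not. CSF1R lies at -2.25 in knockout and -0.83 in wild type on the left and changes sign between treatments on the right.

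S100A8 and S100A9 encode the calprotectin subunits and lie close together on chromosome 1 (GRCh38, GENCODE 29), S100A8 at 153390032 to 153391188 on the minus strand and S100A9 at 153357854 to 153361027 on the plus strand. S100A9 read 156, 179.7 and 177 CPM in CC-885-treated knockout, 442, 417 and 328 CPM in knockout under DMSO, 13.4, 15.2 and 11.6 CPM in CC-885-treated wild type and 32.4, 22.1 and 23.2 CPM in wild type under DMSO. No 2 groups overlapped, and the knockout libraries treated with CC-885 all stayed above the untreated wild type. S100A9 was higher in knockout by 3.94 ± 0.17 under DMSO (log2 fold change ± SE, adjusted p = 7.48e-09), a 15.3-fold difference, and by 3.68 ± 0.17 under CC-885 (adjusted p = 1.1e-08). S100A8 read 24.0, 31.7 and 28.9 CPM in CC-885-treated knockout, 109.9, 105 and 83.2 CPM in knockout under DMSO, 2.62, 3.15 and 3.08 CPM in CC-885-treated wild type and 9.58, 6.10 and 6.33 CPM in wild type under DMSO. Its groups were likewise apart, at 13.6-fold higher in knockout under DMSO (3.76 ± 0.18, adjusted p = 4.09e-09) and 9.56-fold higher under CC-885 (3.26 ± 0.19, adjusted p = 1.92e-08). The lower values of each genotype were those under CC-885: S100A8 fell by 1.82 ± 0.16 in knockout (adjusted p = 2.95e-07) and by 1.31 ± 0.20 in wild type (adjusted p = 5.24e-05), and S100A9 fell by 1.21 ± 0.15 in knockout (adjusted p = 1.82e-05) and by 0.95 ± 0.17 in wild type (adjusted p = 3e-04).

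Within each library the 2 transcripts did not keep a fixed proportion. S100A9 had 6.50, 5.66 and 6.14 counts per S100A8 count in CC-885-treated knockout and 4.02, 3.96 and 3.95 in knockout under DMSO. In wild type the ratio was 5.13, 4.82 and 3.76 under CC-885 and 3.39, 3.61 and 3.67 under DMSO. The CC-885 ratios lay above the DMSO ratios in each genotype with no overlap, narrowly so for wild-type CC-885 replicate 3. That library, at 3.76, has the library-name prefix 52, as do the wild-type DMSO libraries at 3.61 and 3.67. The wild-type libraries at 5.13 and 4.82 under CC-885 and 3.39 under DMSO have prefix 51. The wild-type gap was thus small within prefix 52, and the part of the prefix in it was not tested. In knockout under DMSO the ratio was 3.95 with prefix 52, beside 4.02 and 3.96 with 51. The ratio of S100A9 to S100A8 was looked at after the values were seen and is a description with no test. Per kilobase of GENCODE exon sequence, in knockout under DMSO, S100A9 stood at 686 ± 104 CPM per kb and S100A8 at 98.8 ± 14.2 CPM per kb (SD, n = 3). These lengths join all annotated exons of a gene, 577 bases for S100A9 and 1006 for S100A8. The gap per kb therefore depends on the annotation. The relative S100A12, which encodes another calgranulin, averaged 1.47 ± 0.349 CPM in CC-885-treated knockout and 2.35 ± 0.589 CPM in knockout under DMSO. In wild type it averaged 0.105 CPM under each treatment (SD 0.0294 under CC-885 and 0.00403 under DMSO). It was higher in knockout by 4.45 ± 0.32 under DMSO (edgeR adjusted p = 1.41e-08), which rests on 5, 5 and 6 counts in wild type.

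The windows around the starts of the calprotectin genes and of CSF1R are shown because the first pair moved together and CSF1R differed most between the genotypes in its response. They hold 250 bases before and 50 after a RefSeq start (GRCh38.p14), read 5′ to 3′ on the gene's strand, and capitals mark the PU.1 core GAGGAA on either strand. The S100A9 window is chr1:153357604-153357903 on the plus strand, the S100A8 window, around the second of its 3 starts, is chr1:153391024-153391323 on the minus strand, and the CSF1R window, around the second of its 2 starts, is chr5:150086505-150086804 on the minus strand.
S100A9: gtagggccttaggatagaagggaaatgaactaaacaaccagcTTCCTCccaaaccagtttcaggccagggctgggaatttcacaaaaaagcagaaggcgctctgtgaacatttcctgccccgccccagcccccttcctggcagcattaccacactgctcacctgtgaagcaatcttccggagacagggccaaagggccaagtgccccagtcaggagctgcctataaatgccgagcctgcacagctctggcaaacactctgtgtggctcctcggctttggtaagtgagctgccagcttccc
S100A8: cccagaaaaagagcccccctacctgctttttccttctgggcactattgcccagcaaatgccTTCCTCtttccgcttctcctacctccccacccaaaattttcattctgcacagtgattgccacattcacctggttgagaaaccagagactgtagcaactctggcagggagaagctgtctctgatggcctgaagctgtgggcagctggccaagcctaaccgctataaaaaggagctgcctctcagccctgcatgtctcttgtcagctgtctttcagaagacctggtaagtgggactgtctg
CSF1R: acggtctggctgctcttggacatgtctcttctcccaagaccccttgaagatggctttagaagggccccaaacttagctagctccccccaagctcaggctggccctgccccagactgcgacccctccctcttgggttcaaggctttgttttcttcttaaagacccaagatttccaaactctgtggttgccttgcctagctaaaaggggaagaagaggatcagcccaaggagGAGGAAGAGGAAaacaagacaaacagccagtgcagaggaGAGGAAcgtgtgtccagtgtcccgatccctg
The S100A9 and S100A8 windows each hold 1 PU.1 core, and the CSF1R window holds 3. The window at the other CSF1R start holds 0, and of the other S100A8 windows 1 holds 1 core and the other 0. Among the 10 markers, 9 had windows in the RefSeq table, 21 in all. GAGGAA was in 13 of these 21 windows (61.9%), against 27.9% of all 35116 windows, and some windows of 1 gene overlap and share letters. The C/EBP letters TTGCNNAA were in 1 of 21, against 10.5% of all windows, and the AP-1 letters TGANTCA were in 3 of 21 (14.3%), against 7.71%, both strands searched. The 3 windows with AP-1 letters belong to CSF1R (its other start), CD68 and CD36. A match is a run of letters and not a bound site.

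CSF1R, the receptor tyrosine kinase for colony-stimulating factor 1 and interleukin-34 (chromosome 5, 150053291 to 150113372), showed the most genotype-dependent response of the 10. It read 47.7, 51.0 and 49.2 CPM in CC-885-treated knockout, 239, 231 and 233 CPM in knockout under DMSO, 76.8, 72.4 and 67.1 CPM in CC-885-treated wild type and 129.8, 123 and 131 CPM in wild type under DMSO. The groups were ordered with knockout at both ends, highest under DMSO and lowest under CC-885, and none overlapped. CSF1R fell 4.75-fold under CC-885 in knockout (-2.25 ± 0.06, adjusted p = 1.66e-14) and 1.78-fold in wild type (-0.83 ± 0.06, adjusted p = 2.66e-09). Knockout was higher than wild type under DMSO by 0.87 ± 0.06 (adjusted p = 6.15e-09) and lower under CC-885 at -0.55 ± 0.06 (adjusted p = 1.03e-06).

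The difference between the 2 responses was tested as an interaction, the response in knockout minus that in wild type. It was called for 2 of 10 markers, both lower, against 16.8% of all genes, and for 0 markers higher, against 17.9% of all genes; at an unadjusted p, ANPEP (0.000622) and CSF1R (2.05e-11) were the only markers of the 10 under 0.05, and DESeq2 also called 2. CSF1R stood at -1.42 ± 0.08 (adjusted p = 2.53e-08) and ANPEP at -0.54 ± 0.13 (adjusted p = 0.00369). Of all genes, 41.6% were called and changed at least 2-fold under CC-885 in knockout, against 29.3% in wild type. S100A8 (-0.51 ± 0.25, adjusted p = 0.144) and S100A9 (-0.26 ± 0.22, adjusted p = 0.409) were not called, but both were with the library-name prefix as a covariate (adjusted p = 0.0355 and 0.0424), and S100A8 was without wild-type DMSO replicate 1 (-0.74, adjusted p = 0.0103). ITGAM (-0.19 ± 0.13, adjusted p = 0.3) was called in the 51-prefix libraries alone (-0.45, adjusted p = 0.00518).

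ANPEP, the membrane aminopeptidase also known as CD13 (chromosome 15, 89784889 to 89815401), was abundant in knockout. It read 211, 225 and 225 CPM in CC-885-treated knockout, 576, 556 and 653 CPM in knockout under DMSO, 61.8, 56.3 and 46.4 CPM in CC-885-treated wild type and 96.3, 102 and 107 CPM in wild type under DMSO. All 6 knockout libraries lay above all 6 wild-type libraries. Knockout was 5.84-fold higher under DMSO (2.55 ± 0.09, adjusted p = 2.05e-11) and 4.02-fold higher under CC-885 (2.01 ± 0.09, adjusted p = 1.12e-10). Under CC-885 ANPEP fell 2.70-fold in knockout (-1.43 ± 0.09, adjusted p = 4.25e-10) and 1.86-fold in wild type (-0.89 ± 0.09, adjusted p = 2.23e-07).

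CD68, a heavily glycosylated lysosomal membrane protein of macrophages (chromosome 17, 7579467 to 7582113), varied little within groups. It averaged 309 ± 9.57 CPM in CC-885-treated knockout, 480.5 ± 28.1 CPM in knockout under DMSO, 165 ± 2.07 CPM in CC-885-treated wild type and 249 ± 7.15 CPM in wild type under DMSO (SD, n = 3). No groups overlapped, and knockout was 1.93-fold higher under DMSO (adjusted p = 1.42e-09) and 1.88-fold higher under CC-885 (adjusted p = 1.86e-09). The fall under CC-885 was of like size in both genotypes, -0.64 ± 0.06 in knockout (adjusted p = 2.04e-08) and -0.59 ± 0.06 in wild type (adjusted p = 7.32e-08), and the interaction was -0.04 ± 0.08 (adjusted p = 0.706). Unnamed GENCODE loci overlap 1939 bases of CD68 exons and are not separate symbols in the table, so reads from them could be counted as CD68.

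FCAR, the Fc receptor for immunoglobulin A of monocytes and neutrophils (chromosome 19, 54874248 to 54890472), was the marker that rose most under CC-885. It had 769, 694 and 625 counts in CC-885-treated knockout, 77, 83 and 60 in knockout under DMSO, 27, 26 and 30 in CC-885-treated wild type and 1, 11 and 0 in wild type under DMSO. The count of 0 allows up to 0.0541 CPM in that library. In CPM these were 13.8 ± 0.68 in CC-885-treated knockout, 1.39 ± 0.181 in knockout under DMSO, 0.546 ± 0.054 in CC-885-treated wild type and 0.081 ± 0.122 in wild type under DMSO (SD, n = 3). The 4 groups did not overlap, with wild type under DMSO close to no counts. FCAR rose 9.88-fold under CC-885 in knockout (3.30 ± 0.24, adjusted p = 5.99e-09). In wild type it rose by 2.75 ± 0.53 (adjusted p = 0.000276), or by 5.48 without wild-type DMSO replicate 2, which holds 11 of the 12 counts of its group, by 2.11 without replicate 3, and by 4.43 in the 51-prefix libraries alone. Knockout was higher than wild type by 4.10 ± 0.45 under DMSO (adjusted p = 3.09e-06), by 6.84 without replicate 2 of wild type under DMSO, by 3.46 without replicate 3, and by 5.97 in the 51-prefix libraries alone. Under CC-885, where all libraries have 26 counts or more, knockout was 25.2-fold higher (4.66 ± 0.27, adjusted p = 3.21e-09), rank 18 of 16010 genes by log2 fold change. The interaction was 0.56 ± 0.74 (adjusted p = 0.6), at -2.18 without wild-type DMSO replicate 2 (adjusted p = 0.0623), 1.19 without replicate 3 (adjusted p = 0.138) and -1.23 in the 51-prefix libraries alone (adjusted p = 0.416), so its sign differed between settings.

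FCER1G, the shared chain through which FCAR signals, moved the other way under CC-885. It averaged 38.8 ± 0.984 CPM in CC-885-treated knockout, 117 ± 11.6 CPM in knockout under DMSO, 70.4 ± 2.54 CPM in CC-885-treated wild type and 151 ± 7.14 CPM in wild type under DMSO (SD, n = 3). It fell by 1.60 ± 0.07 in knockout (adjusted p = 4.99e-12) and by 1.10 ± 0.07 in wild type (adjusted p = 6.61e-10), and was lower in knockout than in wild type at -0.37 ± 0.07 under DMSO (adjusted p = 0.000399) and -0.86 ± 0.07 under CC-885 (adjusted p = 4.9e-08).

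ITGAM, the alpha chain CD11b of complement receptor 3 (chromosome 16, 31259967 to 31332892), differed by treatment, and its genotype differences did not pass the test with all 12 libraries. It read 16.9, 15.4 and 16.1 CPM in CC-885-treated knockout, 38.7, 39.9 and 36.3 CPM in knockout under DMSO, 20.6, 19.0 and 16.1 CPM in CC-885-treated wild type and 35.3, 37.9 and 43.0 CPM in wild type under DMSO. The genotypes overlapped under each treatment, and every CC-885 library lay below every DMSO library. ITGAM fell 2.38-fold in knockout (-1.25 ± 0.10, adjusted p = 4.33e-09) and 2.09-fold in wild type (-1.06 ± 0.10, adjusted p = 4.45e-08), while knockout against wild type under DMSO was -0.02 ± 0.09 (adjusted p = 0.903). ITGB2, the beta chain CD18 that pairs with ITGAM, did differ between genotypes. It averaged 671 ± 24.1 CPM in CC-885-treated knockout, 1438 ± 126 CPM in knockout under DMSO, 341 ± 5.34 CPM in CC-885-treated wild type and 592 ± 18.4 CPM in wild type under DMSO (SD, n = 3). ITGB2 was 2.43-fold higher in knockout under DMSO (adjusted p = 3.14e-10) and 1.97-fold higher under CC-885 (adjusted p = 4.43e-09), and it overlaps the antisense gene ITGB2-AS1 over 303 exonic bases, from which its reads may not be separable.

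**Figure D3:**
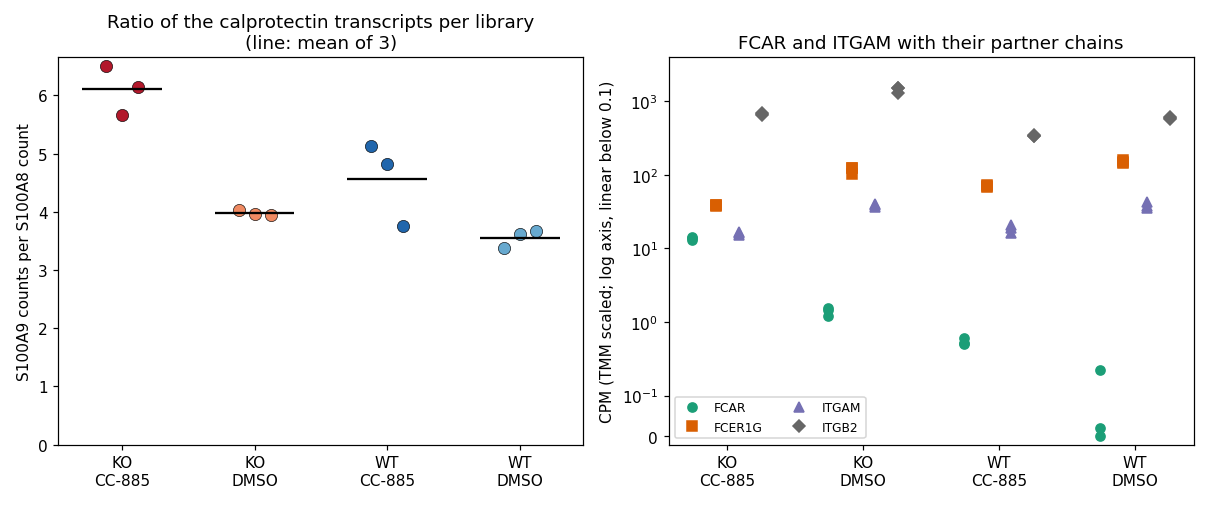
Left, counts of S100A9 per count of S100A8 in each library, with the mean of 3 as a line: the knockout CC-885 libraries lie at 5.66 to 6.50 and the knockout DMSO libraries at 3.95 to 4.02. Right, FCAR, FCER1G, ITGAM and ITGB2 in each library in CPM on a log axis that is linear below 0.1: under CC-885 FCAR is higher and FCER1G lower in each genotype. CPM is not per length, so heights compare libraries and not genes.

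CD36, a scavenger receptor that takes up oxidised lipoproteins and fatty acids (chromosome 7, 80369575 to 80679277), was modestly lower in knockout and under CC-885. It read 10.96, 10.3 and 9.22 CPM in CC-885-treated knockout, 15.4, 16.3 and 14.8 CPM in knockout under DMSO, 12.8, 12.5 and 16.7 CPM in CC-885-treated wild type and 22.2, 18.2 and 19.0 CPM in wild type under DMSO. CC-885 and DMSO libraries were apart in each genotype. It fell by 0.61 ± 0.12 under CC-885 in knockout (adjusted p = 0.000165) and by 0.50 ± 0.11 in wild type (adjusted p = 0.000957). Knockout was lower than wild type at -0.46 ± 0.12 under CC-885 (adjusted p = 0.00307) and -0.35 ± 0.11 under DMSO (adjusted p = 0.0173). The DMSO call was lost with upper-quartile factors (-0.23, adjusted p = 0.0955), on leaving out replicate 1 of wild type under DMSO (-0.26, adjusted p = 0.0895), and on leaving out replicate 3 of knockout under DMSO (-0.32, adjusted p = 0.0605).

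APOE, the apolipoprotein that macrophages secrete with effluxed cholesterol (chromosome 19, 44905754 to 44909393), was low and differed by genotype. It read 4.16, 4.11 and 4.64 CPM in CC-885-treated knockout, 8.04, 6.73 and 5.58 CPM in knockout under DMSO, 0.446, 0.564 and 0.728 CPM in CC-885-treated wild type and 1.07, 1.35 and 1.06 CPM in wild type under DMSO. No groups overlapped, and every knockout library lay above every wild-type library. Knockout was 7.42-fold higher under CC-885 (2.89 ± 0.19, adjusted p = 5.03e-09) and 5.84-fold higher under DMSO (2.55 ± 0.17, adjusted p = 7.02e-09). APOE fell by 0.66 ± 0.15 under CC-885 in knockout (adjusted p = 0.000903) and by 1.00 ± 0.22 in wild type (adjusted p = 0.000657).

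CD86, the B7 ligand that costimulates T cells through CD28 (chromosome 3, 122055366 to 122121139), was the other marker that rose under CC-885. It had 94, 62 and 78 counts in CC-885-treated knockout, 45, 46 and 35 in knockout under DMSO, 116, 92 and 106 in CC-885-treated wild type and 79, 63 and 84 in wild type under DMSO. In CPM the means were 1.54 ± 0.214, 0.80 ± 0.103, 2.06 ± 0.242 and 1.49 ± 0.211 in that order (SD, n = 3). The CC-885 libraries lay above the DMSO libraries in each genotype, with a narrow gap in wild type. CD86 rose by 0.95 ± 0.19 in knockout (adjusted p = 0.000274) and by 0.47 ± 0.17 in wild type (adjusted p = 0.0241). The wild-type call was lost with upper-quartile factors (0.40, adjusted p = 0.0535), in the 51-prefix libraries alone (0.25, adjusted p = 0.418), without wild-type DMSO replicate 2 (0.36, adjusted p = 0.109) or replicate 3 (0.48, adjusted p = 0.0516), and without wild-type CC-885 replicate 1 (0.40, adjusted p = 0.088). Knockout was lower at -0.90 ± 0.19 under DMSO (adjusted p = 0.00111) and -0.42 ± 0.17 under CC-885 (adjusted p = 0.0491). Over the 18 settings that lost it and the 3 that kept it, the adjusted p ranged between 0.0333 and 0.191.

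The genes around the markers, listed by function, did not all share their direction. The list counts stand beside these shares of all genes: under CC-885, 38.9% rose and 40% fell in knockout, and 35.7% rose and 36.6% fell in wild type. For knockout against wild type, 21.3% were higher and 28.4% lower under DMSO, and 27.8% and 30.8% under CC-885. For the interaction they were 17.9% higher and 16.8% lower. Of 20 transcription factors of monocyte and macrophage fate, 9 rose and 8 fell under CC-885 in knockout, and 9 rose and 6 fell in wild type, with medians of 0.16 and 0.33, which is near the shares of all genes. IRF8, a factor of monocyte and dendritic cell fate, fell by 1.45 ± 0.06 in knockout (adjusted p = 7.26e-13) and by 1.04 ± 0.05 in wild type (adjusted p = 7e-11). In knockout against wild type under DMSO, 5 of the 20 were higher and 2 lower (median 0.05), among them the lipid-sensing receptor PPARG at 2.09 ± 0.09 (adjusted p = 3.75e-11) and the granulocyte factor CEBPE at 1.99 ± 0.15 (adjusted p = 2.59e-08). Under CC-885 5 were higher and 7 lower in knockout (median -0.01), and the interaction was called for 2 higher and 7 lower (median -0.10).

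Of 39 other surface, secreted and lysosomal markers, 34 were tested. Under CC-885, 7 rose and 21 fell in knockout (median -0.69), and 6 rose and 19 fell in wild type (median -0.40). The chemokine receptor CCR2 averaged 11.1 ± 0.606 CPM in CC-885-treated knockout and 241 ± 11.1 CPM in knockout under DMSO, and 36.0 ± 5.01 and 246 ± 12.1 CPM in CC-885-treated wild type and DMSO. It fell by 4.45 ± 0.09 in knockout (adjusted p = 1.37e-15) and by 2.77 ± 0.09 in wild type (adjusted p = 1.59e-13). The urokinase receptor PLAUR rose by 2.34 ± 0.07 in knockout (adjusted p = 4.01e-14) and by 1.87 ± 0.07 in wild type (adjusted p = 8.11e-13). In knockout against wild type, 15 were higher and 8 lower under DMSO (median 0.24), and 12 were higher and 13 lower under CC-885 (median -0.06). The lysosomal protease CTSD was higher in knockout by 1.16 ± 0.06 under DMSO (adjusted p = 1.97e-10), while the sialic acid receptor SIGLEC1 (-4.51 ± 0.42, adjusted p = 1.4e-05) and the thrombin receptor thrombomodulin, THBD (-2.48 ± 0.08, adjusted p = 3.36e-12), were lower.

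**Figure D4:**
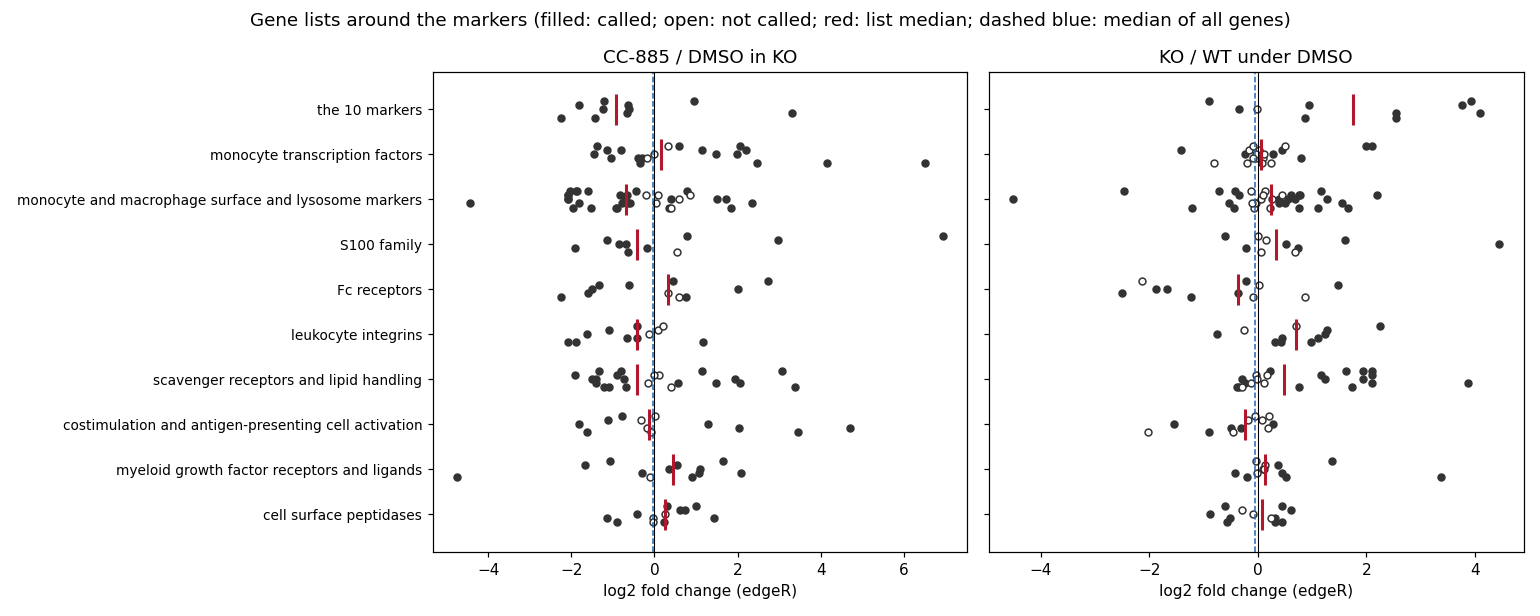
Log2 fold changes of the 10 markers and of the tested genes of 9 lists, on the left for CC-885 against DMSO in knockout and on the right for knockout against wild type under DMSO. Each point is a gene, filled where called; red lines are list medians and the dashed line is the median of all genes. On the right the 10 markers have a median of 1.75, the leukocyte integrins 0.70 and the Fc receptors -0.37.

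The other relatives of single markers split. Of 10 tested S100 genes, 4 were higher and 2 lower in knockout under DMSO (median 0.33), and 4 and 2 under CC-885 (median 0.31). S100A4, which lies in the same gene cluster, was higher in knockout by 0.73 ± 0.12 under DMSO (adjusted p = 0.000366). Under CC-885, 3 S100 genes rose and 6 fell in knockout (median -0.42), and 4 rose and 4 fell in wild type (median -0.14). S100A13 rose by 2.96 ± 0.13 in knockout (adjusted p = 3.23e-12) and by 2.66 ± 0.13 in wild type (adjusted p = 2.43e-11), opposite in direction to S100A8 and S100A9. Of 11 tested Fc receptor genes, 1 was higher and 6 lower in knockout under DMSO (median -0.37), and 2 and 7 under CC-885 (median -0.93), while FCAR was higher. The higher one under DMSO was FCGRT, the neonatal Fc receptor (1.48 ± 0.08, adjusted p = 4.18e-10). Under CC-885, 4 Fc receptor genes rose and 5 fell in knockout (median 0.33), and 3 rose and 5 fell in wild type (median -0.33), with FCGR2A higher by 0.75 ± 0.06 in knockout (adjusted p = 6.67e-09) and by 0.77 ± 0.06 in wild type (adjusted p = 7.13e-09). The FCGR1 and FCGR2 genes have near-identical copies, between which reads may have been split.

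Of 11 leukocyte integrin chains, 8 were higher and 1 lower in knockout under DMSO (median 0.70), and 6 and 1 under CC-885 (median 0.42). ITGAL, the alpha chain CD11a that also pairs with ITGB2, was higher by 2.25 ± 0.12 under DMSO (adjusted p = 3.61e-09). Under CC-885, 1 integrin rose and 7 fell in knockout (median -0.43), and 1 rose and 5 fell in wild type (median -0.14). Of 22 tested scavenger receptor and lipid handling genes, 12 were higher and 4 lower in knockout under DMSO (median 0.49), and 14 and 5 under CC-885 (median 0.90). APOC1, the neighbour of APOE, was higher by 1.93 ± 0.12 under DMSO (adjusted p = 2.91e-09) and by 2.19 ± 0.13 under CC-885 (adjusted p = 1.06e-09), and the endocytic receptor LRP1 by 2.11 ± 0.10 under DMSO (adjusted p = 1.16e-10). Under CC-885, 7 of the 22 rose and 11 fell in knockout (median -0.42), and 6 rose and 11 fell in wild type (median -0.35). PLIN2, a lipid droplet coat protein, rose by 3.38 ± 0.07 in knockout (edgeR adjusted p = 1.37e-15) and by 2.44 ± 0.07 in wild type (edgeR adjusted p = 5.44e-14).

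Of 12 costimulatory genes, 4 rose and 4 fell under CC-885 in knockout (median -0.13), and 4 rose and 2 fell in wild type (median 0.19). The maturation marker CD83 averaged 104 ± 1.67 CPM in CC-885-treated knockout and 3.98 ± 0.849 CPM in knockout under DMSO, a rise of 4.71 ± 0.12 (adjusted p = 8.1e-15). In wild type CD83 rose by 4.31 ± 0.11 (edgeR adjusted p = 3.09e-14). Like CD86, most called genes of this list were lower in knockout, 4 against 1 higher under DMSO (median -0.24) and 7 against 0 under CC-885 (median -0.64). Of 12 growth factor receptor and ligand genes, 7 rose and 4 fell under CC-885 in knockout (median 0.45), and 7 rose and 5 fell in wild type (median 0.77). CSF1, a ligand of CSF1R, averaged 5.0 ± 0.196 CPM in CC-885-treated knockout and 1.18 ± 0.164 CPM in knockout under DMSO, a rise of 2.08 ± 0.15 (adjusted p = 1.51e-09), while CSF1R fell. In wild type CSF1 averaged 4.93 ± 0.636 CPM under CC-885 and 1.58 ± 0.158 CPM under DMSO. In knockout 5 of the 12 were higher and 2 lower under each treatment (medians 0.13 under DMSO and 0.06 under CC-885), among them the granulocyte colony-stimulating factor receptor CSF3R at 1.37 ± 0.11 under DMSO (adjusted p = 1.59e-07). Of 12 peptidases beside ANPEP, 5 were higher and 4 lower in knockout under DMSO (median 0.07) and 1 and 3 under CC-885 (median -0.07), while 6 rose and 3 fell under CC-885 in knockout (median 0.25) and 5 rose and 3 fell in wild type (median 0.27). For the interaction, called higher in 17.9% and lower in 16.8% of all genes, the called genes higher and lower were 4 and 15 of the 34 surface and lysosomal markers, 0 and 1 of the S100 genes, 1 and 3 of the Fc receptors, 0 and 5 of the integrins, 3 and 9 of the lipid genes, 1 and 1 of the costimulatory genes, 0 and 4 of the growth factor genes and 0 and 3 of the peptidases. They were 0 and 8 of the 10 genes listed for the identity of a monocytic line.

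Several of the 10 markers are also made by granulocytes. The 10 listed neutrophil genes summed to 388 to 407 CPM of library totals in CC-885-treated knockout, 1910.0 to 2277 CPM in knockout under DMSO, 250 to 309 CPM in CC-885-treated wild type and 955 to 1002 CPM in wild type under DMSO. ELANE, a granule protease of granulocyte progenitors, gave 95.8%, 96.7%, 94.7% and 95.7% of that in the same group order. The chemokine receptor CXCR2 was at 56.6 CPM in knockout under DMSO and 36.4 CPM in wild type under DMSO. CEACAM8, LTF and LCN2, which mark later neutrophils, had 0 counts in every library. CAMP, also on this list, was not absent, with 128, 224, 74 and 133 counts per group in the same order. MMP8 had 2, 3, 3 and 0 counts and OLFM4 had 0, 1, 0 and 0. Of the 10 genes 4 were tested, of which 3 were higher in knockout under DMSO, against 21.3% of all genes. Under CC-885 all 4 fell in each genotype, against 40% of all genes in knockout and 36.6% in wild type. Between genotypes under CC-885, 2 of the 4 were higher in knockout, against 27.8% of all genes, while CXCR2 (0.09, adjusted p = 0.58) and MPO (-0.04, adjusted p = 0.863) were not called. The summed level was highest in knockout under DMSO, as were S100A8, S100A9 and ANPEP. The order of the other groups differed: the sum was lower in CC-885-treated knockout than in wild type under DMSO, where these 3 markers were higher in CC-885-treated knockout. The part of these genes in the marker differences was not tested. Among markers of other lineages, the highest summed level was 117 CPM for T and NK cells, chiefly NCAM1 in wild type, 35.9 CPM for B cells, 5 CPM for erythroid cells and megakaryocytes, 107.5 CPM for dendritic cells, chiefly FLT3, and 463 CPM for epithelial, stromal and endothelial cells, of which PECAM1 gave 98.7% in knockout under DMSO. On that last list CDH5, KRT19, COL1A2, COL3A1 and DCN had 0 counts in every group. KRT8, PDGFRB, VWF and COL1A1 had 214, 388, 142 and 92 counts in knockout under DMSO.

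Each marker was set beside the genes nearest to it in profile. Likeness was taken as the root mean square difference of centred log2 CPM over the 12 libraries, among 10673 other genes with a mean of at least 5 CPM, and is a description. It is not scaled by the size of a gene's own changes or its counting noise, so distances do not rank the markers. S100A8 and S100A9 were each other's closest marker at 0.31, and LSP1 was closest to S100A9 among other genes at 0.25, while DMRT3 was closest to S100A8 at 0.40. ITGAM and CD68 had near neighbours, RNF26 and TFDP1 at 0.08 for ITGAM and KCNQ1 and GGT1 at 0.08 for CD68. For CSF1R they were GPA33 at 0.13 and TAPBP at 0.14, for CD36 MTIF3 at 0.10 and RAD17 at 0.11, for CD86 FAM21A at 0.13 and EXOC3 at 0.16, for ANPEP ACSS1 at 0.19 and TESC at 0.24, and for APOE ANXA8 at 0.25 and MFNG at 0.30. FCAR had none as close: CYP1B1 stood at 0.87, and its closest marker, APOE, at 2.15.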

How the data were processed

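PolyA RNA of 12 THP-1 libraries was measured. Per the submitters' processing notes the build was GRCh38 and the tools HISAT2 2.0.5, featureCounts 1.5.2 and FastQC 0.11.2. The labels' extraction protocol instead names FastQC 0.11.7 and a mouse build. The symbols are human. The cell line tag reads THP1 in 4 libraries and carries other numbers in the other 8, whereas all 12 titles name THP1, and the titles were followed. The authors deposited raw counts per gene symbol, and how strand and multi-mapping were set is not given in the sources used here. From these, genes were kept by edgeR's filterByExpr, which left 16010 symbols with 99.98% of counts, and scaled by TMM factors. A quasi-likelihood model (edgeR 4.0.16, limma 3.58.1, R 4.3.3) with 1 coefficient per group was fitted to all 12 libraries without covariates. It gave 5 contrasts, with Benjamini-Hochberg adjustment over all genes tested and calls at an adjusted p under 0.05. SE values derive from the F statistic. Depth ranged between 46903984 and 56675539 counts, and a floor of 3 counts covers counting error only. Sequences are RefSeq promoter windows, and exon lengths and coordinates are from GENCODE 29. Alternatives included DESeq2 1.42.0 and leaving out each library.

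The 10 markers and the gene lists were chosen with earlier results of these data known, so marker and list counts are descriptions read beside all genes. All markers are named in every comparison. From each list, genes came from the 3 largest rises and 3 largest falls among called genes reaching 5 CPM in the higher group, and partner chains and each marker's 2 most similar genes were added. Neutrophil, monocytic and other marker genes were named after their values were seen. Of 168 listed genes, all 168 were in the table. Some genes that meet these rules are not reported here.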

Additional observations from a re-analysis of the deposited data

Results flagged for a closer look

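The response of 2 markers to CC-885 differed between the genotypes by the interaction test. For CSF1R the response in knockout minus that in wild type was -1.42 on the log2 scale (edgeR adjusted p = 2.53e-08), with every one of the 20 alternative settings keeping the call. For ANPEP it was -0.54 (edgeR adjusted p = 0.00369), called in all 20 alternatives as well, at values between -0.65 and -0.44.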

How the results depend on the processing

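In 1008 of 1040 refits of single-marker changes (50 changes, 20 or 21 settings each), direction and side of the threshold were kept; 26 lost a call, 6 gained one and none reversed a called direction. The lost calls were those of CD86 and CD36 given beside their values. With the library-name prefix as a covariate, 4 markers were called for the interaction in place of 2, all lower, and the cause was not tested. Calls over all genes were then 3088 lower and 3320 higher, in place of 2691 and 2871. Leaving out single libraries gave 10 markers called for CC-885 in knockout each time, 9 to 10 in wild type, 8 to 9 between the genotypes with either treatment, and 2 to 3 for the interaction. By the replicate numbers of the titles, same-numbered libraries' deviations correlated at between -0.034 and 0.232, over 0.1 in 2 of 18 pairs. In 8 of the 18 the own number gave the highest correlation. Library names carry numbers of their own, which differ from the title numbers in some libraries. The 2 pairs over 0.1 share prefix and library number, as do other pairs that stayed below. Pairing by library number was not tested. With title replicate numbers as a block, 10, 10, 9, 9 and 2 markers were called in the 5 comparisons, the same as without it. List counts were added to the alternatives after the data were seen, and 1780 of 1872 stayed within 1.5 times the reported count. Among all interaction calls 51.6% were higher, or 39.7% with upper-quartile factors. CD86 and APOE, and FCAR in wild type, rest on few counts, and only for FCAR did leaving out 1 library move a fold by over 1.5 times.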
